A study of Homo sapiens with 12 samples.

Results

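The 10 genes described here encode feedback brakes on MAP kinase signalling: 5 dual-specificity MAP kinase phosphatases (DUSP1, DUSP4, DUSP5, DUSP6 and DUSP10), 3 Sprouty proteins (SPRY1, SPRY2 and SPRY4) and 2 Sprouty-related SPRED proteins (SPRED1 and SPRED2). They were taken by gene symbol from a table of 20114 symbols, all 10 were found, and all 10 were among the 13872 genes with enough counts to test. Growth factor receptors activate RAS, RAF, MEK and finally the kinases ERK1 and ERK2, while stress signals act through the related kinases JNK and p38. MAP kinase phosphatases switch these kinases off by removing phosphate from their activation loop, and Sprouty and SPRED proteins act higher up, on the steps from receptor to RAF. Many of these genes are themselves induced by ERK, so that the pathway limits its own output. In breast cancer cells the progesterone receptor is known both to activate MAP kinases rapidly and to be phosphorylated by them.

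The cells were T47D, an established line from a human breast carcinoma that carries estrogen and progesterone receptors. They were starved of serum in medium with charcoal-stripped serum and then treated for 6 h or 18 h with a progestin at 10 nM, a progestin at 100 pM, or vehicle, and the labels used here do not name the compound. Each of the 6 combinations of dose and time had 2 libraries of total RNA, numbered replicate 1 and replicate 3, and every library came from this same line under the same starvation. The title of the series concerns how such cells tell low from high progestin levels, which is addressed here by setting each dose against vehicle and 10 nM against 100 pM.

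Total counts were 34204970 to 41373890 per library, and levels are given as CPM, counts scaled to a common library total with a further scaling between libraries by the trimmed mean of M values (TMM). Of 11 luminal breast epithelial markers 10 stayed above 1 CPM in all 12 libraries, with TFF1, an estrogen-induced secreted peptide, at 0 to 0.612 CPM. The 11 summed to 5930 to 12700 CPM over the libraries. Immune markers summed to 2.85 to 5.56 CPM and endothelial markers to 0.13 to 0.927 CPM, while the fibroblast list summed to 72.7 to 120 CPM, of which the collagen gene COL1A1 gave 66.1 to 114 CPM. FKBP5, a co-chaperone of steroid receptors that progestins induce, averaged 45.0 ± 20.3 CPM with vehicle, 756 ± 182 with 100 pM and 516 ± 136 with 10 nM at 6 h (SD, n = 2 each). At 18 h FKBP5 averaged 36.3 ± 11.5 CPM with vehicle, 815 ± 57.1 with 100 pM and 903 ± 251 with 10 nM. The labels do not say whether the 2 libraries of a group were separate cultures. The p-values therefore reflect the spread among these libraries, which may be technical. These are bulk RNA measurements, in which fewer cells of a kind and less RNA per cell cannot be told apart.

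A gene is called here when its adjusted p from the edgeR quasi-likelihood test, corrected by Benjamini and Hochberg's method across the 13872 genes, is under 0.05. This test left replicate number out, except where the replicate block is named. At 10 nM for 6 h 2 of the 10 genes rose and 4 fell, beside 22.6% of all genes tested called higher and 19.4% called lower. At 10 nM for 18 h 1 rose and 5 fell, beside 19.0% and 15.2%. At 100 pM for 6 h 1 rose and 0 fell, beside 2.88% and 0.606%, and 3 fell at an unadjusted p under 0.05, of which DESeq2 called 2. At 100 pM for 18 h 1 rose and 3 fell, beside 6.57% and 3.89%. The median log2 fold change of the 10 genes was -0.75 at 10 nM for 6 h, -0.83 at 10 nM for 18 h, -0.42 at 100 pM for 6 h and -0.32 at 100 pM for 18 h, where the median of all genes tested lay between -0.03 and -0.00. Direct comparison of the doses gave 1 gene higher and 3 lower at 10 nM than at 100 pM at 6 h (20.1% and 16.8% of all genes) and again 1 and 3 at 18 h (14.8% and 11.4%). The comparisons with vehicle at a given time share their vehicle libraries. The 10 genes were chosen with earlier results of these data known, and the part of that choice in these counts and medians was not tested. The luminal markers moved with the dose too. They summed to 7570 to 7670 CPM at 10 nM and 12200 to 12400 CPM in vehicle at 6 h, and to 5930 to 5980 CPM at 10 nM and 11800 to 12300 CPM in vehicle at 18 h. At 100 pM the sums were 12700 CPM in both libraries of 6 h and 11600 to 12600 CPM at 18 h. Of the 11 luminal markers 7 fell and 0 rose at 10 nM at each time (DESeq2 gave the same counts). Among them FOXA1, a transcription factor of luminal cells, averaged 61.5 ± 11.9 CPM at 10 nM and 388 ± 14.4 CPM in vehicle at 6 h (SD, n = 2 each). GATA3, another such factor, averaged 426 ± 20.4 CPM at 10 nM and 1332 ± 57.7 CPM in vehicle, and PGR, the progesterone receptor gene, 541 ± 68.5 CPM and 1948 ± 230 CPM in the same order. At the lower dose 1 luminal marker rose and 3 fell at 18 h. Of the markers at 100 pM for 6 h 0 were called by edgeR, with 2 up and 2 down at an unadjusted p under 0.05 and 2 up and 1 down by DESeq2. The part of these markers in the results for the 10 genes was not tested. Adding replicate number to the fit as a block raised the calls among the members and among all genes. At 100 pM it gave 1 up and 4 down at 6 h (7.59% and 4.64% of all genes) and 3 up and 4 down at 18 h (17.0% and 17.0%). At 10 nM it gave 3 up and 5 down at 6 h (31.6% and 30.9%) and 2 up and 6 down at 18 h (28.7% and 27.3%). For 10 nM against 100 pM it gave 2 up and 4 down at 6 h (29.5% and 29.8%) and 2 up and 4 down at 18 h (25.4% and 24.7%).

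**Figure D1:**
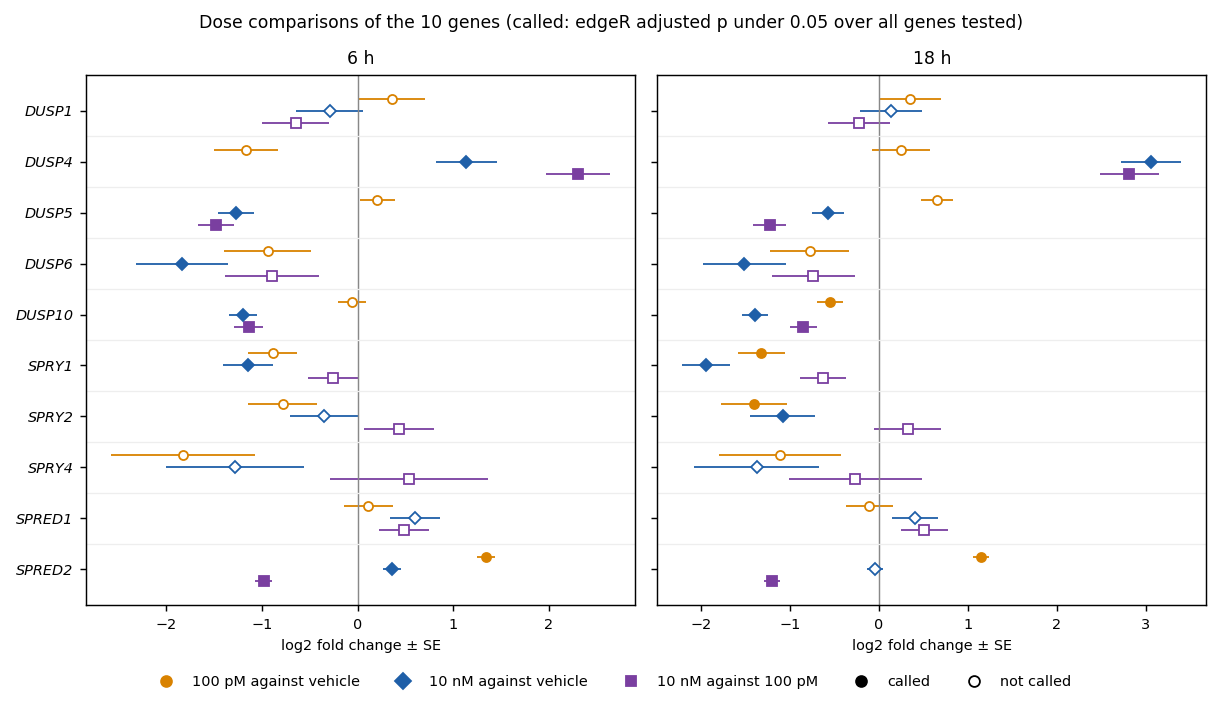
Log2 fold change (horizontal axis, bars 1 SE) of each gene in the comparisons of 100 pM with vehicle, 10 nM with vehicle and 10 nM with 100 pM, at 6 h (left) and 18 h (right), with filled symbols for calls at an edgeR adjusted p under 0.05. DUSP4 lies far to the right at 10 nM (1.14 at 6 h and 3.07 at 18 h against vehicle), DUSP5, DUSP6, DUSP10 and SPRY1 lie to the left at 10 nM, and SPRED2 is to the right at 100 pM and to the left when 10 nM is set against 100 pM.

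Among the phosphatases, DUSP4 was the 1 called higher at 10 nM, at both times. It encodes a nuclear phosphatase of ERK and JNK and is induced by ERK. At 6 h it measured 7.07 and 11.6 CPM with vehicle, 3.57 and 4.74 with 100 pM and 14.1 and 27.0 with 10 nM (replicates 1 and 3). After 18 h it stood at 8.00 and 8.64 CPM with vehicle, 9.58 and 10.2 with 100 pM and 61.6 and 77.7 with 10 nM. The 10 nM libraries stood above all other libraries at both times, and at 6 h the 100 pM libraries stood below both vehicle libraries. DUSP4 rose 8.37-fold at 10 nM against vehicle at 18 h (log2 3.07 ± 0.34 SE, edgeR adjusted p = 0.000209) and 2.20-fold at 6 h (log2 1.14 ± 0.32, adjusted p = 0.0204). The call at 6 h was lost without 10 nM replicate 3 (log2 0.60, adjusted p = 0.172) or vehicle replicate 1 (log2 0.82, adjusted p = 0.119) and when only the libraries of 6 h were fitted (log2 1.13, adjusted p = 0.0647). At 100 pM DUSP4 was not called at 6 h (log2 -1.17 ± 0.34, adjusted p = 0.130) or at 18 h (log2 0.25 ± 0.32, adjusted p = 0.698). The value at 6 h was called lower with the replicate block (adjusted p = 0.0047) and with DESeq2 (adjusted p = 0.0137). Between doses DUSP4 was higher at 10 nM than at 100 pM by 4.95-fold at 6 h (adjusted p = 0.000944) and 7.06-fold at 18 h (adjusted p = 0.000475).

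The rise of DUSP4 at 10 nM grew with time. Its effect of 10 nM was 1.93 ± 0.45 log2 units larger at 18 h than at 6 h (edgeR interaction, adjusted p = 0.0321). It was the only such call of the 10 genes, beside 4.55% of all genes with a larger value at 18 h and 5.99% with a smaller one. The call was lost without any of 10 nM 18 h replicate 1 (2.08), 10 nM 18 h replicate 3 (1.74), vehicle 18 h replicate 1 (1.87), vehicle 18 h replicate 3 (1.98), 10 nM 6 h replicate 1 (1.53) or vehicle 6 h replicate 3 (1.53), with DUSP4 adjusted p of 0.0531 to 0.111, while the difference stayed between 1.53 and 2.46 without any 1 library. From 6 h to 18 h the DUSP4 level differed by log2 1.76 ± 0.32 at 10 nM (adjusted p = 0.00558). The same difference in time was 2.38-fold at 100 pM, not called (adjusted p = 0.121, with 0.00256 under the replicate block and 0.00646 by DESeq2). In vehicle it was log2 -0.17 ± 0.32 (adjusted p = 1).

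DUSP5 went the other way. It encodes a nuclear phosphatase that acts on ERK1 and ERK2 and, like DUSP4, is known as an ERK-induced gene. At 6 h it measured 34.9 and 37.9 CPM with vehicle, 43.1 and 40.98 with 100 pM and 16.5 and 13.7 with 10 nM. After 18 h the values were 30.8 and 43.5 CPM with vehicle, 59.2 and 57.9 with 100 pM and 21.3 and 28.6 with 10 nM. In each time the 100 pM libraries were the highest and the 10 nM libraries the lowest, with no overlap between doses. Against vehicle DUSP5 fell at 10 nM by 2.42-fold at 6 h (log2 -1.27 ± 0.19, edgeR adjusted p = 0.000801) and by 1.49-fold at 18 h (log2 -0.57 ± 0.18, adjusted p = 0.0421). The later call was lost without 10 nM replicate 1 (log2 -0.37, adjusted p = 0.223) or vehicle replicate 3 (log2 -0.30, adjusted p = 0.279) and when only the 18 h libraries were fitted (adjusted p = 0.100). At 100 pM DUSP5 was not called at 6 h (log2 0.21 ± 0.18) or 18 h (log2 0.66 ± 0.18, adjusted p = 0.0568), and the 18 h value was called higher with the replicate block (adjusted p = 0.00915), with DESeq2 (adjusted p = 0.0103) and without vehicle replicate 3 (log2 0.93, adjusted p = 0.0364). Set directly against 100 pM, 10 nM gave lower DUSP5 at 6 h (log2 -1.48 ± 0.19, adjusted p = 0.00045) and at 18 h (log2 -1.23 ± 0.19, adjusted p = 0.00164).

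DUSP10 encodes a phosphatase of p38 and JNK, and it fell at 10 nM at both times. At 6 h it measured 13.9 and 13.8 CPM with vehicle, 14.1 and 12.5 with 100 pM and 6.75 and 5.33 with 10 nM. After 18 h the values were 16.2 and 16.2 CPM with vehicle, 11.6 and 10.6 with 100 pM and 6.74 and 5.62 with 10 nM. At 6 h the 100 pM and vehicle libraries overlapped and the 10 nM libraries lay below them, whereas at 18 h the doses did not overlap. At 10 nM DUSP10 fell by 2.29-fold at 6 h (log2 -1.20 ± 0.15, edgeR adjusted p = 0.000302) and by 2.62-fold at 18 h (log2 -1.39 ± 0.15, adjusted p = 0.000171). At 100 pM it was not called at 6 h (log2 -0.06 ± 0.15) and fell at 18 h (log2 -0.54 ± 0.15, adjusted p = 0.0486). That last call was lost without any 1 of its 4 libraries, 100 pM replicate 1 (log2 -0.61) or replicate 3 (-0.48) and vehicle replicate 1 (-0.54) or replicate 3 (-0.54), with adjusted p of 0.108 to 0.208. It was also lost with DESeq2's size factors (adjusted p = 0.056), without the filter on low counts (adjusted p = 0.0617) and when only the 18 h libraries were fitted (adjusted p = 0.116). With the replicate block and no library left out, the 18 h fall at 100 pM was called (adjusted p = 0.00217). The direct difference between doses was log2 -1.14 ± 0.15 at 6 h (adjusted p = 0.000496) and -0.85 ± 0.15 at 18 h (adjusted p = 0.00345).

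DUSP6, a cytoplasmic phosphatase specific for ERK1 and ERK2 that is widely used as a readout of ERK activity, was low throughout. It had 20 to 126 counts per library. At 6 h it measured 2.85 and 1.36 CPM with vehicle, 1.30 and 0.885 with 100 pM and 0.609 and 0.564 with 10 nM. By 18 h it stood at 3.52 and 2.06 CPM with vehicle, 1.38 and 1.89 with 100 pM and 0.689 and 1.26 with 10 nM. At each time the vehicle libraries were the highest and the 10 nM libraries the lowest, without overlap, but the vehicle libraries differed widely from each other. DUSP6 fell at 10 nM by 3.57-fold at 6 h (log2 -1.84 ± 0.48, edgeR adjusted p = 0.0149) and by 2.85-fold at 18 h (log2 -1.51 ± 0.46, adjusted p = 0.0339). With the replicate block both of these falls were called too (adjusted p = 0.00411 and 0.00869). At 100 pM DUSP6 was not called (log2 -0.94 ± 0.46 at 6 h and -0.78 ± 0.45 at 18 h). The direct difference of 10 nM from 100 pM was not called for DUSP6 at either time. It was log2 -0.897 ± 0.495 at 6 h (adjusted p = 0.191, 0.134 with the replicate block). At 18 h the difference was log2 -0.735 ± 0.467 (adjusted p = 0.286, 0.177 with the block). The DUSP6 call at 6 h was lost without vehicle replicate 1 (log2 -1.21), 10 nM replicate 1 (log2 -1.89) or 10 nM replicate 3 (log2 -1.78), with adjusted p of 0.0688 to 0.106. The DUSP6 call at 18 h was lost without vehicle replicate 1 (log2 -1.07, adjusted p = 0.192) or 10 nM replicate 1 (log2 -1.14, adjusted p = 0.174) and with only the 18 h libraries (adjusted p = 0.0532). In GENCODE release 29 a gene on the opposite strand overlaps exons of DUSP6. The strand setting of the counting is not stated, so reads of the pair cannot be told apart.

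DUSP1, a nuclear phosphatase of p38, JNK and ERK and an immediate-early gene induced by stress and glucocorticoids, was not called in any dose comparison. At 6 h it measured 57.2 and 33.5 CPM with vehicle, 70.8 and 45.2 with 100 pM and 42.6 and 31.5 with 10 nM. By 18 h DUSP1 stood at 71.2 and 57.6 CPM with vehicle, 104 and 60.8 with 100 pM and 80.8 and 60.5 with 10 nM. Replicate 3 was lower than replicate 1 in 6 of 6 groups, by a log2 difference of -0.77 to -0.31. The log2 fold change against vehicle was -0.29 ± 0.35 at 10 nM and 0.36 ± 0.35 at 100 pM at 6 h, and 0.13 ± 0.35 at 10 nM and 0.35 ± 0.35 at 100 pM at 18 h (edgeR adjusted p 0.543 to 0.913). With the replicate block DUSP1 was called lower at 10 nM than at 100 pM at 6 h (log2 -0.63, adjusted p = 0.000528) and higher at 100 pM than in vehicle at 18 h (log2 0.31, adjusted p = 0.0446). Between times DUSP1 at 18 h was above 6 h by log2 0.93 ± 0.35 at 10 nM and 0.50 ± 0.35 at 100 pM, neither of them called (adjusted p = 0.0891 and 0.532). With the block both were called (adjusted p = 5.24e-05 and 0.00835). DESeq2 called the difference at 10 nM (adjusted p = 0.0309).

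**Figure D2:**
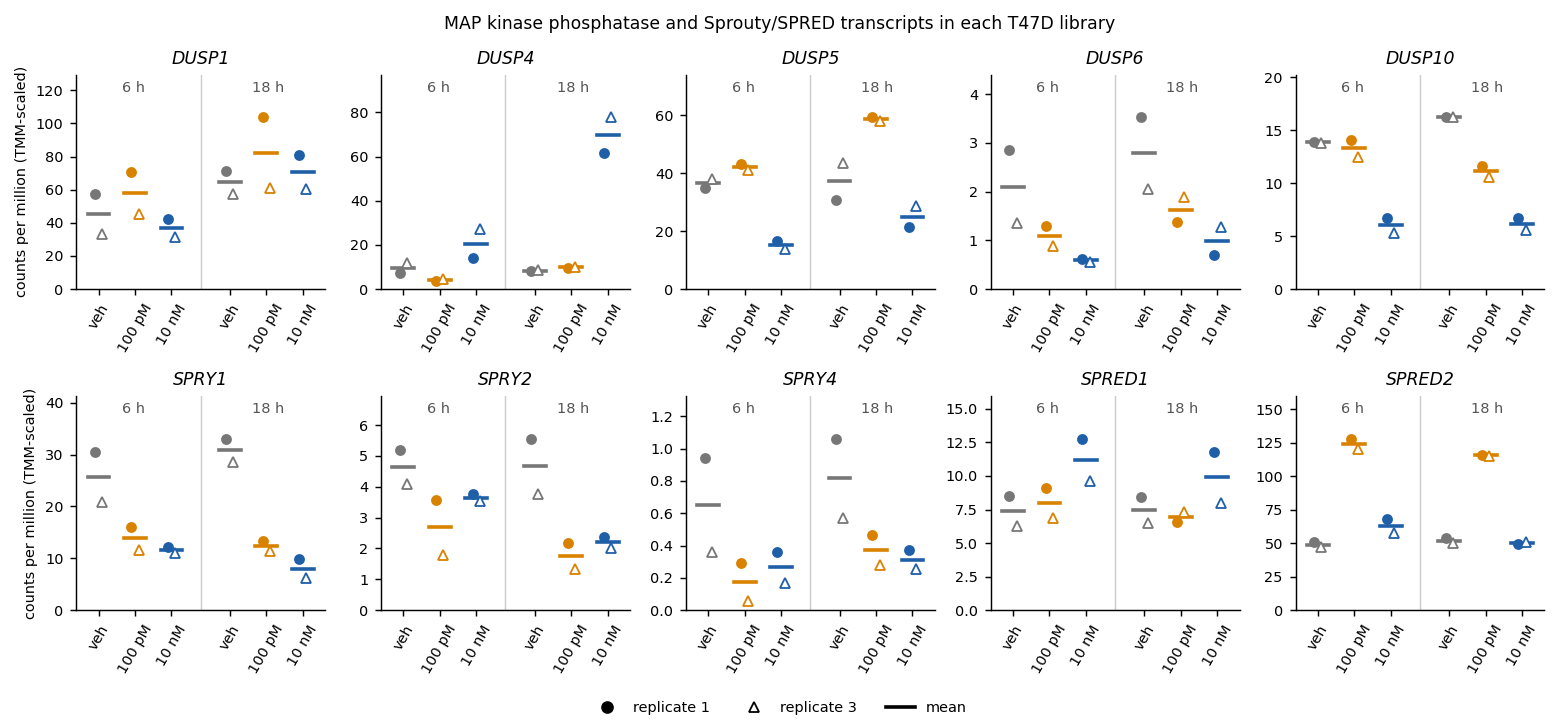
Level of each of the 10 genes in every library (vertical axis, TMM-scaled CPM from 0, own scale per gene), by dose and time, with a circle for replicate 1, a triangle for replicate 3 and a bar for the mean of the 2 libraries. The 10 nM libraries of DUSP4 at 18 h (61.6 and 77.7 CPM) and the 100 pM libraries of SPRED2 (115 to 128 CPM) stand far above the rest of their panels, and the vehicle libraries are the highest for SPRY1, with 20.8 to 33.1 CPM.

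Promoter windows of 250 bases before an annotated start were found for 8 of the 10 genes, 13 windows in all (RefSeq, GRCh38.p14, whereas the counts were made on hg19), and 7 of these held no exon of their own gene. Of these 7, the windows shown are those of SPRED2, which rose at 100 pM, of SPRY1, which fell, and of the pair in SPRY2 that hold a hormone receptor hexamer. The SPRED2 window shown belongs to a start downstream of its other annotated start, whose window held an exon of SPRED2. Capitals mark the hexamer AGAACA, here as its reverse complement TGTTCT, which is the core bound by the progesterone and glucocorticoid receptors.
SPRED2 (chr2:65366779-65367028, minus strand): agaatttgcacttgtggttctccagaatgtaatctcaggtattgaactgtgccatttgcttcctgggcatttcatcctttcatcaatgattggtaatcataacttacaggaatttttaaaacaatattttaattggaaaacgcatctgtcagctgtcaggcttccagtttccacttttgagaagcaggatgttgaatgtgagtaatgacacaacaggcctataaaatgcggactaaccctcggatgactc
SPRY1 (chr4:123396545-123396794, plus strand): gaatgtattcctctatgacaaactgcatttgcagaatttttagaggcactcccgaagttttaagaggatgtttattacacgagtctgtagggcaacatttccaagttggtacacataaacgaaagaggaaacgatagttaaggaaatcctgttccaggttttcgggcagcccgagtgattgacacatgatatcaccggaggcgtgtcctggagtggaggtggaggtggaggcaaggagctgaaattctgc
SPRY2 (chr13:80340109-80340358, minus strand): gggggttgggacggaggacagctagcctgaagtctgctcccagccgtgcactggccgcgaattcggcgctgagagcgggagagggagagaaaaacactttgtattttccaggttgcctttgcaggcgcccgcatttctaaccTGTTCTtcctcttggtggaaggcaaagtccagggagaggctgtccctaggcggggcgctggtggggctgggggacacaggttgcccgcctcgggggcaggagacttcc
SPRY2 (chr13:80339660-80339909, minus strand): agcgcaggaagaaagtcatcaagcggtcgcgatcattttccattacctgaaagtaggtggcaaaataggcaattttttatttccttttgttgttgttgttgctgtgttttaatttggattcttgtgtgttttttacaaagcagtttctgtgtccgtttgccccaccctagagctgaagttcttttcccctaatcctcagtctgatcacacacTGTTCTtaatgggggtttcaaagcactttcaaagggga
AGAACA was present on either strand in 2 of the 13 windows, beside 12.4% of the 35116 windows of the same length in the table. Both were windows of SPRY2, before different annotated starts, at 108 bases before the first of these and 38 before the other. The window of the most upstream SPRY2 start held no match. The cyclic AMP response element TGACGTCA was found in 1 window, that of DUSP1, at 125 bases before its start (1.65% of all windows), the ETS core CCGGAAG in 1 window of SPRY1 (8.52%), and the AP-1 site TGANTCA in 0 of 13 windows (6.57%). All 4 motifs were searched on both strands, and no member window held more than 1 of them. A match is only a match of letters, and no binding was measured. Which of the annotated starts these cells used was not measured either.

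In the fit without the replicate block SPRY1 fell under progestin in 3 of its 4 comparisons with vehicle, and SPRY2 fell at 18 h at both doses. SPRY4 was called against vehicle only with that block. SPRY1, an inhibitor of growth factor signalling from receptor to RAF, measured 30.6 and 20.8 CPM with vehicle, 16.1 and 11.7 with 100 pM and 12.2 and 11.03 with 10 nM at 6 h. By 18 h it stood at 33.1 and 28.6 CPM with vehicle, 13.4 and 11.4 with 100 pM and 9.79 and 6.26 with 10 nM. Every progestin library was below every vehicle library of its time, and the doses overlapped at 6 h but not at 18 h. SPRY1 fell at 10 nM by 2.21-fold at 6 h (log2 -1.15 ± 0.26, edgeR adjusted p = 0.00737) and by 3.85-fold at 18 h (log2 -1.94 ± 0.27, adjusted p = 0.000678). At 100 pM it fell by 2.49-fold at 18 h (log2 -1.32 ± 0.26, adjusted p = 0.0152, and 7.04e-06 with the replicate block). At 100 pM for 6 h SPRY1 was not called (log2 -0.89 ± 0.26, adjusted p = 0.135), and it was called lower there with the replicate block (adjusted p = 0.000292) and with DESeq2 (adjusted p = 0.0243). The difference between doses was not called, at log2 -0.26 ± 0.26 for 6 h and -0.62 ± 0.26 for 18 h (adjusted p = 0.470 and 0.116), and with the block the 18 h difference was called (adjusted p = 0.00139). The SPRY1 call at 10 nM for 6 h was lost without vehicle replicate 1 (log2 -0.84, adjusted p = 0.0513). Its call at 100 pM for 18 h was lost without 100 pM replicate 1 (log2 -1.44), 100 pM replicate 3 (log2 -1.21) or vehicle replicate 1 (log2 -1.21), with adjusted p of 0.0548 to 0.0977.

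SPRY2, the family member best known for binding CBL and GRB2, had 47 to 204 counts per library. At 18 h it measured 5.56 and 3.76 CPM with vehicle, 2.18 and 1.32 with 100 pM and 2.38 and 2.02 with 10 nM. At 6 h SPRY2 stood at 5.19 and 4.10 CPM with vehicle, 3.57 and 1.80 with 100 pM and 3.76 and 3.53 with 10 nM. The progestin libraries lay below the vehicle libraries of their time, and the doses overlapped. At 18 h SPRY2 fell by 2.12-fold at 10 nM (log2 -1.08 ± 0.37, edgeR adjusted p = 0.0494) and by 2.65-fold at 100 pM (log2 -1.41 ± 0.37, adjusted p = 0.0457). Both calls were lost without any 1 of the 4 libraries compared, at log2 -1.34 to -0.77 for 10 nM (adjusted p 0.0562 to 0.245) and -1.81 to -1.09 for 100 pM (adjusted p 0.066 to 0.235), and with only the 18 h libraries (adjusted p = 0.0617 and 0.0881). At 6 h SPRY2 was not called at 10 nM (log2 -0.35 ± 0.36) or 100 pM (log2 -0.78 ± 0.36), with the 100 pM value called lower under the replicate block (adjusted p = 0.0206). Under that block, with no library left out, the 18 h falls were called too (adjusted p = 0.000989 at 10 nM and 0.000366 at 100 pM).

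SPRY4, which restrains RAS activation, was near the limit of what could be tested, with 2 to 38 counts per library. Its means at 6 h were 0.650 ± 0.412 CPM with vehicle, 0.175 ± 0.167 with 100 pM and 0.265 ± 0.135 with 10 nM, and at 18 h 0.816 ± 0.349 CPM, 0.374 ± 0.131 CPM and 0.313 ± 0.0850 CPM in the same order (SD, n = 2 each). The means of SPRY4 under progestin were all below those of vehicle. No dose comparison of SPRY4 was called, with log2 fold changes against vehicle of -1.28 ± 0.72 and -1.37 ± 0.70 at 10 nM and -1.83 ± 0.75 and -1.11 ± 0.68 at 100 pM for 6 h and 18 h. With the replicate block all 4 were called lower (edgeR adjusted p 0.00952 to 0.0343). Replicate 3 of SPRY4 was below replicate 1 in 6 of 6 groups, by a log2 difference of -2.36 to -0.56.

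SPRED2 rose at the low dose and not, or hardly, at the high dose. SPRED proteins recruit neurofibromin, a GTPase-activating protein that switches RAS off. At 6 h SPRED2 measured 50.8 and 47.1 CPM with vehicle, 128 and 120.5 with 100 pM and 67.9 and 57.8 with 10 nM. At 18 h it measured 53.6 and 50.2 CPM with vehicle, 116 and 115 with 100 pM and 49.6 and 50.9 with 10 nM. The 100 pM libraries stood above all others at both times, and at 18 h the 10 nM and vehicle libraries overlapped. At 100 pM SPRED2 rose 2.54-fold at 6 h (log2 1.34 ± 0.09, edgeR adjusted p = 0.000118) and 2.23-fold at 18 h (log2 1.15 ± 0.09, adjusted p = 0.000176). At 10 nM it rose 1.28-fold at 6 h (log2 0.36 ± 0.09, adjusted p = 0.0116) and was not called at 18 h (log2 -0.05 ± 0.09, adjusted p = 0.725). At 10 nM SPRED2 was lower than at 100 pM at 6 h (log2 -0.98 ± 0.09, adjusted p = 7.96e-05) and at 18 h (log2 -1.20 ± 0.09, adjusted p = 4.69e-05). The calls at 100 pM and between doses held without any 1 library, while the SPRED2 call at 10 nM for 6 h was lost without 10 nM replicate 1 (log2 0.24, adjusted p = 0.0855) or vehicle replicate 3 (log2 0.31, adjusted p = 0.0854).

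SPRED1, the SPRED gene mutated in Legius syndrome, was not called in any dose comparison. Its means at 6 h were 7.39 ± 1.57 CPM with vehicle, 7.99 ± 1.61 with 100 pM and 11.2 ± 2.24 with 10 nM, and at 18 h 7.47 ± 1.34 CPM, 6.94 ± 0.492 CPM and 9.90 ± 2.68 CPM in the same order (SD, n = 2 each). The 10 nM libraries were above both vehicle libraries at 6 h and overlapped them at 18 h. SPRED1 was not called at 10 nM (log2 0.60 ± 0.26 at 6 h, edgeR adjusted p = 0.0962, and 0.41 ± 0.26 at 18 h, adjusted p = 0.270) or at 100 pM (log2 0.11 ± 0.26 and -0.11 ± 0.26). With the replicate block it was called higher at 10 nM against vehicle at 6 h (adjusted p = 0.0039) and 18 h (adjusted p = 0.0411). It was also called higher at 10 nM than at 100 pM at both times (adjusted p = 0.0141 and 0.0191).

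The profiles over dose are given here as a description. The levels of DUSP10, DUSP6 and SPRY1 went down from vehicle through 100 pM to 10 nM at both times by their means. At 6 h the vehicle and 100 pM libraries overlapped for DUSP10, and the 2 doses overlapped for SPRY1. The step from 100 pM to 10 nM was not called for DUSP6 or SPRY1, except for SPRY1 at 18 h with the replicate block. SPRED2, DUSP5 and DUSP1 had their highest means at 100 pM at both times. For DUSP1 the 100 pM libraries overlapped vehicle at both times and overlapped 10 nM at 18 h but not at 6 h. DUSP4 and SPRED1 had their highest means at 10 nM at both times, with overlap with vehicle at 18 h for SPRED1. Between 6 h and 18 h in vehicle 0 of the 10 genes were called by edgeR, 0 by DESeq2 and 0 at an unadjusted p under 0.05, beside 0 of all genes tested (0%). At 100 pM 0 were called by edgeR, 2 at an unadjusted p under 0.05 and 1 by DESeq2, beside 0.526% of all genes called higher and 0.656% lower. With the block 2 rose and 0 fell (11.5% and 10.7%). At 10 nM, in addition to DUSP4, DUSP5 was higher at 18 h than at 6 h (log2 0.73 ± 0.19, adjusted p = 0.0228) and SPRED2 lower (log2 -0.32 ± 0.09, adjusted p = 0.0311), beside 11.4% of all genes called higher and 13.1% lower. With the block 3 were higher and 3 lower (24.4% and 24.7%). SPRY1 (log2 -0.53 ± 0.26, adjusted p = 0.177) and SPRY2 (log2 -0.73 ± 0.37, adjusted p = 0.187) were then among the lower ones (adjusted p = 0.0041 and 0.0141 with the block). The DUSP5 difference in time was lost without 10 nM 18 h replicate 3 (0.50), 10 nM 6 h replicate 1 (0.87) or 10 nM 6 h replicate 3 (0.60), and that of SPRED2 without 10 nM 18 h replicate 1 (-0.30), 10 nM 18 h replicate 3 (-0.35) or 10 nM 6 h replicate 1 (-0.20). The change of the 10 nM effect from 6 h to 18 h was not called for DUSP5 (0.70 ± 0.26, adjusted p = 0.128), SPRED2 (-0.41 ± 0.13, adjusted p = 0.0779) or SPRY1 (-0.80 ± 0.37, adjusted p = 0.208). With the replicate block all 3 were called (adjusted p = 0.0418 for DUSP5, 0.00766 for SPRED2 and 0.0031 for SPRY1), as was the change of the 100 pM effect for DUSP4 (1.42 ± 0.47 and adjusted p = 0.556 without the block, 0.0225 with it). DESeq2 called the SPRED2 change of the 10 nM effect (adjusted p = 0.0407). Over all genes 17.0% had a larger and 18.1% a smaller 10 nM effect at 18 h with the block, and 3.14% and 2.47% for 100 pM. Without the block edgeR called 0 of the 10 genes for the 100 pM effect (2 at an unadjusted p under 0.05, 0 with DESeq2), beside 0% and 0.0144% of all genes.

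Per kilobase of exon (union of exons in GENCODE release 29), DUSP1 had the highest level in vehicle at 6 h, with 22.4 CPM per kb, followed by DUSP5 with 13.9, SPRED2 with 9.496, SPRY1 with 6.48 and DUSP10 with 4.76 CPM per kb. SPRY2 (1.53), DUSP4 (1.29), SPRED1 (0.894), DUSP6 (0.454) and SPRY4 (0.0990 CPM per kb) were lower. At 10 nM for 18 h the order differed, with DUSP4 at 9.60 CPM per kb beside SPRED2 at 9.75 and DUSP5 at 9.56, and with SPRY1 at 2.02 CPM per kb. Over the 12 libraries the genes whose log2 CPM ran closest to each member were CASK (Pearson r = 0.967) and TNFAIP8 (0.960) for DUSP4. The closest were C11orf52 (0.971) and ELF5 (0.970) for DUSP5, RNF114 (0.986) and PRDM11 (0.984) for DUSP10, and SIPA1L2 (0.943) and PLS1 (0.937) for DUSP6. They were BEST1 (0.964) and LPIN1 (0.938) for DUSP1, BCL2 (0.980) and ADSS (0.970) for SPRY1. For the others they were LRP5 (0.946) and TRMT12 (0.940) for SPRY2, FOXK1 (0.927) and NRIP1 (0.925) for SPRY4, WDR48 (0.955) and KCTD20 (0.954) for SPRED1, and INPP5J (0.980) and PARVA (0.974) for SPRED2. These are the highest of 10841 or 10842 candidates each, over libraries that share doses, times and replicate numbers.

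The other genes of the pathway are given as counts of calls beside the shares of all genes tested, which were 22.6% higher and 19.4% lower at 10 nM for 6 h and 19.0% and 15.2% for 18 h. Those shares with the replicate block were 31.6% and 30.9% for 6 h and 28.7% and 27.3% for 18 h. At 100 pM 2.88% of all genes were higher and 0.606% lower at 6 h, and 6.57% and 3.89% at 18 h. The block made these 7.59% and 4.64% at 6 h and 17.0% and 17.0% at 18 h. Of 14 tested phosphatases outside the set, 3 rose (21.4%) and 2 fell (14.3%) at 10 nM for 6 h, and 2 rose and 2 fell (14.3% each) at 18 h. DUSP14, an atypical phosphatase, rose at 6 h to 189 ± 21.2 CPM at 10 nM, against 46.5 ± 4.41 CPM in vehicle (SD, n = 2 each; log2 2.02 ± 0.25, edgeR adjusted p = 0.000282). DUSP16, which acts on JNK, rose at 10 nM at both times (log2 1.08 ± 0.17 and 0.80 ± 0.17), and DUSP8, another JNK phosphatase, fell at both (log2 -1.04 ± 0.15 and -0.71 ± 0.15). At 100 pM for 6 h 0 of the 14 phosphatases were called by edgeR, 1 by DESeq2 and 2 at an unadjusted p under 0.05, and at 18 h 1 was called, DUSP16 (log2 0.72 ± 0.17, adjusted p = 0.0338). The median log2 fold change of the 14 was 0.04 at 10 nM for 6 h and -0.32 at 10 nM for 18 h. With the replicate block 5 rose and 5 fell at 10 nM for 6 h and 3 and 3 at 18 h, and at 100 pM 2 rose and 0 fell at 6 h and 1 and 1 at 18 h.

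Of 21 other tested brakes on receptors and RAS, 7 rose (33.3%) and 5 fell (23.8%) at 10 nM for 6 h and 5 rose (23.8%) and 3 fell (14.3%) at 18 h. The replicate block gave 9 up and 8 down at 6 h and 9 and 6 at 18 h. DAB2IP, a GTPase-activating protein that acts on RAS, reached 955 ± 4.30 CPM at 10 nM, against 180 ± 14.3 CPM in vehicle, at 6 h (SD, n = 2 each; log2 2.41 ± 0.09, edgeR adjusted p = 1.13e-06). RASA2, another RAS GTPase-activating protein, rose in all 4 comparisons with vehicle (log2 0.65 to 1.03). PEA15, an ERK-binding protein, rose at 100 pM for 6 h (log2 0.75 ± 0.13) and 18 h (log2 1.02 ± 0.13). It was high at 10 nM too, with 303 ± 5.13 CPM at 6 h and 317 ± 19.2 CPM at 18 h. Vehicle gave 148 ± 12.5 and 155 ± 10.3 CPM (SD, n = 2 each). SPRED3, the third SPRED gene, fell at 10 nM for 6 h (log2 -1.49 ± 0.29, adjusted p = 0.00335). At 100 pM 2 of the 21 rose and 0 fell at 6 h (DESeq2 called 4 up and 0 down, and 1 fell at an unadjusted p under 0.05), and 2 rose and 1 fell at 18 h. With the block 6 rose and 1 fell at 100 pM for 6 h and 5 and 6 for 18 h. Over all genes the 100 pM shares were 2.88% and 0.606% at 6 h and 6.57% and 3.89% at 18 h. The block made them 7.59% and 4.64% at 6 h and 17.0% and 17.0% at 18 h. The medians of these brakes were 0.11 and -0.01 at 10 nM for 6 h and 18 h.

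Of 19 genes of the RAS to ERK cascade, 5 rose (26.3%) and 3 fell (15.8%) at 10 nM for 6 h, and 6 rose (31.6%) and 2 fell (10.5%) at 18 h, beside 22.6% and 19.4% of all genes at 6 h and 19.0% and 15.2% at 18 h. Adding the replicate block gave 6 up and 6 down at 6 h and 10 and 4 at 18 h. GRB2, the adaptor that links receptors to RAS, averaged 498 ± 49.9 CPM at 10 nM and 150 ± 2.21 CPM in vehicle at 6 h (SD, n = 2 each; log2 1.73 ± 0.09, edgeR adjusted p = 3.68e-06). MAP2K1, which encodes the ERK kinase MEK1, rose at 10 nM at 6 h (log2 0.58 ± 0.09) and 18 h (log2 1.30 ± 0.09), and BRAF fell at 6 h (log2 -0.70 ± 0.17, adjusted p = 0.012). Of 16 genes of the JNK and p38 cascades, 4 rose (25%) and 5 fell (31.2%) at 10 nM for 6 h and 2 rose (12.5%) and 7 fell (43.8%) at 18 h. With the block 5 rose and 5 fell at 6 h and 3 and 9 at 18 h. MAPKAPK2, a kinase downstream of p38, rose at 6 h (log2 1.29 ± 0.15) and MAP2K6, which activates p38, fell (log2 -2.35 ± 0.48). At 100 pM 1 of the 19 cascade genes rose at 6 h, FRS2, an adaptor of FGF receptors (log2 0.39 ± 0.09, adjusted p = 0.0426), and 0 fell (1 at an unadjusted p under 0.05, 0 with DESeq2 and 0 with the block). After 18 h at 100 pM 1 of the 19 rose and 1 fell (3 and 4 with the block). Of the JNK and p38 genes 0 were called at 100 pM for 6 h by edgeR, 1 fell by DESeq2, 0 rose and 4 fell at an unadjusted p under 0.05, and 1 rose and 3 fell with the block. At 18 h 1 of these rose and 1 fell (2 and 4 with the block). Over all genes the 100 pM shares were 2.88% and 0.606% at 6 h and 6.57% and 3.89% at 18 h. The block made them 7.59% and 4.64% at 6 h and 17.0% and 17.0% at 18 h.

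Of 14 tested genes known to be induced by ERK, 2 rose (14.3%) and 4 fell (28.6%) at 10 nM for 6 h, and 4 rose (28.6%) and 2 fell (14.3%) at 18 h, with medians of log2 -0.33 and 0.63. These counts with the replicate block were 5 and 5 at 6 h and 5 and 4 at 18 h. CCND1, which encodes cyclin D1, rose in all 4 comparisons with vehicle (log2 1.34 to 2.26). MYC averaged 107 ± 18.8 CPM at 10 nM and 32.3 ± 0.708 CPM in vehicle at 6 h (SD, n = 2 each). At 18 h the MYC means were 76.0 ± 23.3 and 38.3 ± 4.96 CPM in the same order. EPHA4, an ephrin receptor, fell at 10 nM at 6 h (log2 -3.05 ± 0.18) and 18 h (log2 -2.17 ± 0.18), as did IER2, an immediate-early gene (log2 -2.03 ± 0.11 and -1.10 ± 0.11). FOS was lower than vehicle at 10 nM for 6 h (log2 -0.81 ± 0.27, edgeR adjusted p = 0.0365) and higher at 18 h (log2 1.17 ± 0.25, adjusted p = 0.00728). At 100 pM edgeR called 1 of the 14 higher at 6 h, CCND1, and 2 at 18 h, CCND1 and PLAUR, the urokinase receptor (log2 2.12 ± 0.40, adjusted p = 0.0127). DESeq2 called 2 higher at each time, and edgeR with the block 4 at each time. Of all genes edgeR called 2.88% higher at 6 h and 6.57% at 18 h, and 7.59% and 17.0% with the block. No member of the list fell at 100 pM by edgeR, with or without the block, or DESeq2, with 1 at 6 h and 0 at 18 h at an unadjusted p under 0.05.

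Of 12 growth factor receptors, 3 rose (25%) and 4 fell (33.3%) at 10 nM for 6 h and 2 rose (16.7%) and 6 fell (50%) at 18 h, beside 22.6% and 19.4% of all genes at 6 h and 19.0% and 15.2% at 18 h. The replicate block made these 5 and 5 at 6 h and 3 and 6 at 18 h. RET, the receptor for GDNF-family ligands, measured 16.8 ± 0.423 CPM at 10 nM and 0.779 ± 0.202 CPM in vehicle at 6 h (SD, n = 2 each; log2 4.42 ± 0.25, edgeR adjusted p = 4.99e-06). ERBB2 fell at 10 nM at 6 h (log2 -1.19 ± 0.08) and 18 h (log2 -1.66 ± 0.08) and at 100 pM for 6 h (log2 -0.38 ± 0.08, adjusted p = 0.0404). EGFR rose 2.38-fold at 100 pM for 6 h (adjusted p = 0.0174). At 100 pM 1 receptor rose and 1 fell at each time (4 and 1 at 6 h and 4 and 3 at 18 h with the block). Over all genes the 100 pM shares were 2.88% and 0.606% at 6 h and 6.57% and 3.89% at 18 h. The block made them 7.59% and 4.64% at 6 h and 17.0% and 17.0% at 18 h. Median log2 fold changes of the receptors were -0.20 and -0.32 at 10 nM for 6 h and 18 h.

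**Figure D3:**
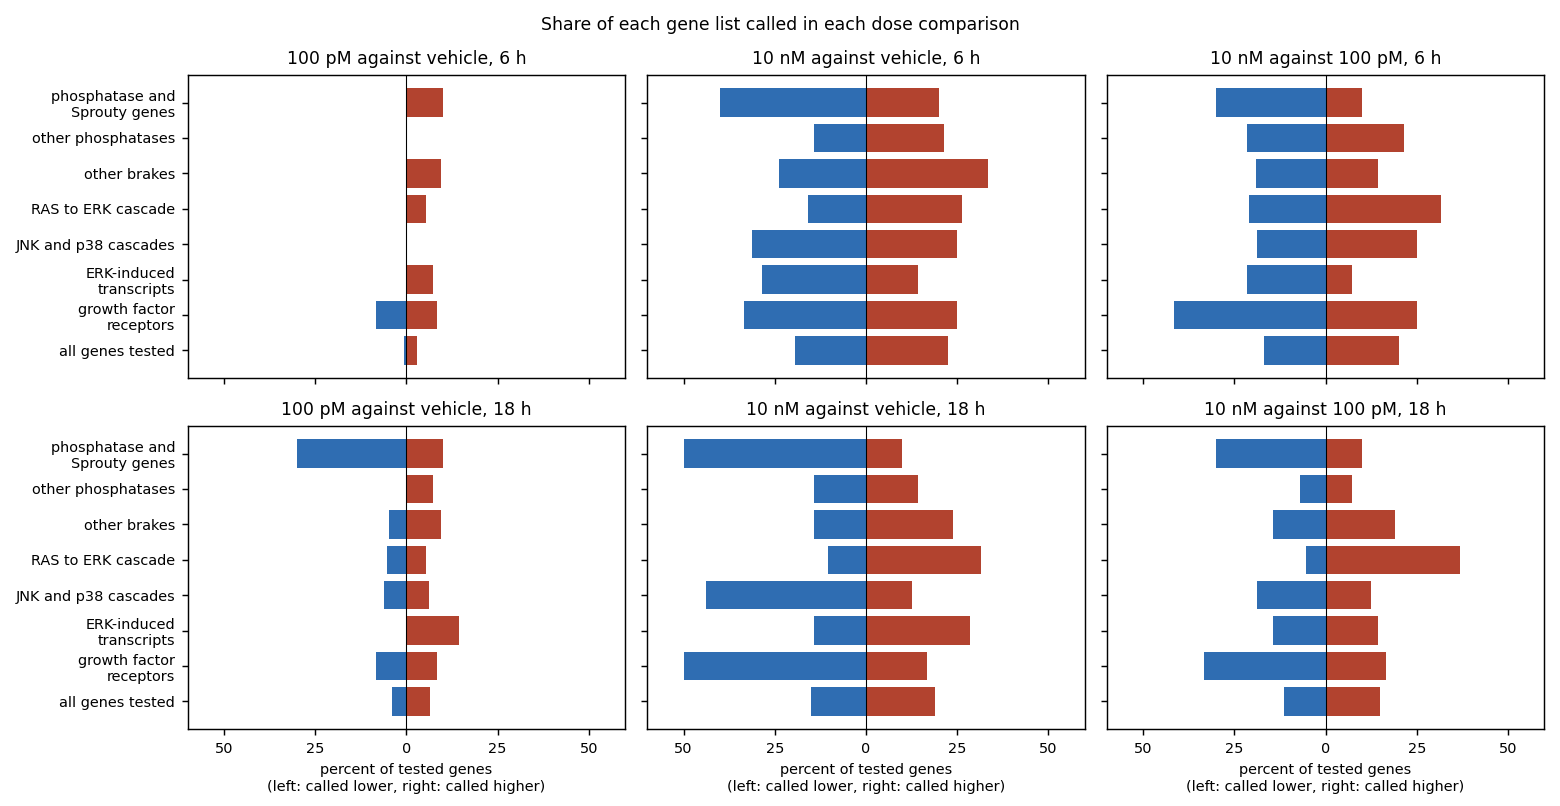
Share of the tested genes of each list called higher (right) or lower (left) in the 6 dose comparisons (horizontal axis in percent), with all 13872 genes tested in the bottom row. In the 10 genes described here 4 of 10 were called lower at 10 nM for 6 h and 5 of 10 at 18 h, beside 19.4% and 15.2% of all genes. At 10 nM 2 of 10 were called higher at 6 h and 1 of 10 at 18 h, beside 22.6% and 19.0%.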

How the data were processed

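Per the deposited file, the authors' table holds whole-number read counts per gene symbol for 12 libraries, with no normalization. STAR, DESeq2 and hg19 are named in the submitters' processing notes without version or role, and for the annotation, counting tool and strand setting nothing is stated there. Libraries were grouped by the dose and time in their titles. Tests used edgeR 4.0.16 (R 4.3.3): filterByExpr kept 13872 of 20114 genes (2709 had no count), TMM scaling, a robust quasi-likelihood fit with 1 coefficient per group (6 residual degrees of freedom) and Benjamini-Hochberg adjustment over all genes tested. The SE is the absolute log2 fold change over the square root of F. All adjusted p-values are from edgeR unless DESeq2 (1.42.0) is named. The code was tested on simulated counts for 10 nM against vehicle at 6 h. There the edgeR test called 17.9% of genes changed 1.5-fold, 55.2% of those changed 2-fold and 74.2% of those changed 4-fold. The simulation changed 67, 67 and 66 of 13872 genes in that order, without a replicate effect, whereas 5826 genes were called in the data. The shares called may therefore differ in the data. A gene that is not called is not shown to be unchanged.

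Replicate numbers were checked for pairing: for all 15 pairs of groups, same-numbered libraries deviated together from their group means (r 0.464 to 0.677 across genes). The numbers, which the labels do not explain, were therefore taken to pair the libraries in an alternative fit with replicate number as a block. The main calls come from the fit without the block and do not use this pairing. Values with the block are printed where they change the call of a member or the counts of a list against vehicle. They are also printed for some calls that were lost with 1 library left out. Libraries were left out only in fits without the block. The coefficient of variation common to all genes was 0.163 without the block and 0.0678 with it. Alternatives were DESeq2, its size factors, no filter, the block, each time fitted alone and each library left out. All 10 members are reported; of each list, up to 3 rises and 3 falls with the smallest adjusted p in a comparison could be named, and for each member the 2 genes with the highest r over libraries. The members and lists were chosen with earlier results of these data known. Exon lengths are from GENCODE release 29 on GRCh38, since no hg19 annotation was used here. Total counts were 34204970 to 41373890 per library.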

Additional observations from a re-analysis of the deposited data

Results flagged for a closer look

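DUSP4 was picked out because its response to 10 nM differed between times: the log2 fold change against vehicle was 3.07 at 18 h and 1.14 at 6 h, a difference of 1.93 ± 0.45 (edgeR interaction, adjusted p = 0.0321, 0.000766 with DESeq2 and 0.00038 with the replicate block). Both 10 nM libraries at 18 h (61.6 and 77.7 CPM) were above both at 6 h (14.1 and 27.0 CPM). In all 6 groups replicate 3 had the higher DUSP4 level, and the part of this in the result was not tested beyond the block.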

How the results depend on the processing

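With replicate number as a block, 7 members were called at 100 pM against vehicle at 18 h (4 without the block), 5 at 6 h (1), 6 between times at 10 nM (3), 2 between times at 100 pM (0), 4 for the change of the 10 nM effect (1) and 1 for that of the 100 pM effect (0). Other counts of members with the block rose by at most 1.5 times. Every member call of the fit without the block was also made with it, in the same direction. Calls over all genes tested rose with the block too. In the same order they were 4728 (1450 without the block), 1696 (483), 6819 (3393), 3076 (164), 4863 (1462) and 777 (2). DESeq2 called 3 members at 100 pM for 6 h, 1 between times at 100 pM and 2 for the change of the 10 nM effect. Over all genes it called 849, 855 and 2316 in the same order. Fitting 18 h alone left 2 members at 100 pM and 3 at 10 nM against vehicle. Calls over all genes were then 655 at 100 pM (1450 in the main fit) and 3724 at 10 nM (4734). With 1 library left out, counts of members called ran from 3 to 5 at 10 nM for 6 h, 1 to 3 at 100 pM for 18 h, 3 to 5 at 10 nM for 18 h, 1 to 2 between times at 10 nM and 0 to 2 for the change of the 10 nM effect. Of 29 member calls 16 were kept without any 1 library, and a called value changed sign in 0 of them; why the others were lost was not tested. In the comparisons listed, fewer of all genes tested were called too with any 1 library left out. Sign changes were followed for 83 results of single members. Left out were most members between times at 100 pM and for the change of the 100 pM effect, and all members between times in vehicle. In 17 of the 83, all of them uncalled, the log2 value crossed 0 with 1 library left out. For 100 pM against vehicle at 6 h it ran from -0.146 to 0.008 for DUSP10 and from -0.102 to 0.350 for SPRED1. For 10 nM against vehicle at 6 h it ran from -0.625 to 0.148 for DUSP1. Between 10 nM and 100 pM at 6 h it ran from -0.129 to 2.143 for SPRY4. For 100 pM against vehicle at 18 h it ran from -0.083 to 0.687 for DUSP1 and from -0.277 to 0.089 for SPRED1. For 10 nM against vehicle at 18 h it ran from -0.090 to 0.316 for DUSP1 and from -0.094 to 0.001 for SPRED2. Between 10 nM and 100 pM at 18 h it ran from -0.554 to 0.216 for DUSP1 and from -0.576 to 0.150 for SPRY4. Between 18 h and 6 h at 10 nM it ran from -0.134 to 0.212 for DUSP10, -0.207 to 0.871 for SPRY4 and from -0.485 to 0.070 for SPRED1. For the change of the 10 nM effect it ran from -0.015 to 0.758 for DUSP1, -0.305 to 0.763 for DUSP6, -0.941 to 0.548 for SPRY4 and from -0.501 to 0.047 for SPRED1. SPRY4 had 2 to 38 counts per library and DUSP6 20 to 126.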
